A study of Arabidopsis thaliana with 16 samples.

Results

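Small heat shock proteins of the organelles are described here by their transcripts in WT and HSFA2 KO Arabidopsis cells. The genes are HSP22.0 of the endoplasmic reticulum (At4g10250), HSP21 of the chloroplast (At4g27670), HSP15.7 of the peroxisome (At5g37670), and HSP23.6 (At4g25200) and HSP23.5 (At5g51440) of the mitochondria. Their probe sets were found by locus in the array annotation, and the choice of these 5 loci was made with earlier results of the same arrays known. All 5 were represented on the array, each by 1 probe set, and they made up 5 of the 22687 probe sets tested. The array annotation describes At5g37670 only as a class I-related protein, so its peroxisomal location is background knowledge. Arrays measure transcripts, and they hold no measure of where a protein was located.

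Callus cells of the Col-0 ecotype were grown in the dark on plates in unventilated BRIC canisters, and they were fixed in RNAlater on day 10 in orbit on the International Space Station or in a ground chamber that replayed the station's temperature 48 h later. The groups compared were WT cells on the ground (GWt), WT cells in spaceflight (FWt), HSFA2 KO cells on the ground (GHsf) and HSFA2 KO cells in spaceflight (FHsf). The sample labels give an age of 14 days in all of these groups. The knockout is the T-DNA insertion line SALK_008978C. By the paper's methods, the agar medium of the plates held sucrose and 2,4-D in all groups, and no applied agent is described that differed between the groups. In each environment there were 5 WT arrays, of 4 plates, and 3 HSFA2 KO arrays, 16 arrays in all. WT plate A1 had 2 arrays in each environment, titled Rep1 and Rep2, and these arrays were averaged on the log2 scale, which left 14 values per gene. Arrays titled Rep2 are called the second run below and all others the first run, although the titles name no array run or date. Each genotype was represented by 1 culture line, so the plates replicate the culture and not the genotype, and p-values measure the spread between these plates. In each environment the WT plates were divided between canisters A and B (BRIC A and BRIC B), and every HSFA2 KO plate was in BRIC B. Flight and ground canisters of the same letter were different canisters, so a shared letter does not pair them. The labels disagree on the plate of GHsf array B3-2: its title places it on the same plate as GHsf B3 and its source name does not, so n = 3 in GHsf may count a repeat as a replicate.

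Small heat shock proteins bind unfolding proteins and hold them in a state from which other chaperones can refold them. Most plant small heat shock proteins act in the cytosol and nucleus, but plants also send members of the family into the endoplasmic reticulum, chloroplasts, mitochondria and peroxisomes, by signal or transit peptides or a peroxisomal targeting signal. HsfA2 is a heat shock transcription factor that accumulates during heat and other stresses and activates small heat shock protein genes, HSP22.0 and HSP21 among them.

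The targeted gene matched the labels: *HsfA2* (At2g26150) gave signals of 3187 to 6291 on the GWt plates and 5362 to 9180 on the FWt plates, but 7.38 to 76.5 on the GHsf arrays and 34.5 to 170 on the FHsf arrays. Signals are MAS5 intensities, whose array medians ran from 68.7 to 123. All 5 small heat shock proteins lay above the highest upper quartile of any array, 352, on every array. The summed signal of 4 callus marker genes was 285 to 491 on GWt plates and 423 to 1226 on GHsf arrays, and 1 of them, *LBD16*, rose in GHsf : GWt by 1.48 on the log2 scale (SE 0.43, limma adjusted p = 0.269). Of the green tissue markers 4 of 5 were measured, with a summed signal of 251 to 393 on GWt plates and 349 to 434 on GHsf arrays. In GHsf : GWt 2 of these 4 were higher and 2 lower, *RCA* at -0.54 and *LHCA3* at -0.62. Only the small subunit of Rubisco, *RBCS1A*, passed there, at 2.57 (SE 0.83, limma adjusted p = 0.309). It gave 8.89 to 44.7 on GWt plates and 88.3 to 123 on GHsf arrays. Its lowest GWt value lay under the lower quartile of every array, so the size of this difference is uncertain. *PSBO1*, of photosystem II, passed in FHsf : GHsf with lower signals in spaceflight (limma adjusted p = 0.610), but it gave 3.59 to 12.7 on the FHsf arrays, all under the lower quartile of every array, against 16.3 to 108 on the GHsf arrays, so no fold is given. None of the 5 xylem markers or of the 3 root hair and endodermis markers passed, with summed signals of 188 to 329 and 44.5 to 173 on GWt plates and of 251 to 813 and 154 to 222 on GHsf arrays. No marker was listed at 0, and the part of the markers in the results below was not tested. In bulk samples such as these, fewer cells of a type and less RNA per cell cannot be told apart.

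By the array annotation, which names no genome build, the HSP22.0 transcript aligns to chromosome 4 at 6370536 to 6371124 on the plus strand. HSP21 lies on the same chromosome at 13819047 to 13819895 on the minus strand, and HSP23.6 at 12917088 to 12917858 on the plus strand. The HSP23.5 transcript aligns to chromosome 5 at 20891241 to 20892013, and that of HSP15.7 to the same chromosome at 14969034 to 14969448, both on the plus strand. The 5 genes are thus spread over 2 chromosomes, and no pair of them lies next to each other.

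On the ground, the genes of the endoplasmic reticulum, the chloroplast and the peroxisome had lower signals in HSFA2 KO than in WT cells. The estimated falls of the mitochondrial genes were smaller, but the genes were not tested against each other. HSP22.0, HSP21 and HSP15.7 fell 3.69-fold, 2.61-fold and 2.79-fold. HSP23.6 was 1.77-fold lower without passing the thresholds, and HSP23.5 differed by -0.14 on the log2 scale. To pass, a gene needed a limma p under 0.01, unadjusted, together with a log2 fold change above 1 or below -1. Thus 3 of the 5 genes passed in GHsf : GWt, where 2.46% of all probe sets did, and 4 of the 5 had a limma p under 0.05 without adjustment, where 10.7% did. The median log2 fold change was -1.38 over the 5 genes and 0.12 over all probe sets. After adjustment over all probe sets, the lowest p of the 5 genes was 0.238 in limma. With an intensity trend in limma's estimate of the spread, at the same fold changes, the adjusted p was instead 0.0024 for HSP22.0, 0.0084 for HSP21 and 0.0046 for HSP15.7.

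HSP22.0, the small chaperone of the endoplasmic reticulum lumen, gave 8949.8, 7496, 11807 and 13328 on GWt plates A1, A2, B1 and B2. On GHsf arrays B3, B3-2 and B5-2 it gave 3140, 3838 and 1720. Every GHsf array thus lay below every GWt plate, and B5-2 was the lowest of all 14 values. The group means were 10395 ± 2651 (SD, n = 4) and 2899 ± 1079 (SD, n = 3), and the log2 fold change was -1.88 (SE 0.51, 95% interval -3.01 to -0.76, limma adjusted p = 0.238). An exact permutation test, two-sided, gave p = 0.0286, the smallest that 3 arrays against 4 plates allow. If GHsf arrays B3 and B3-2 are 1 plate, as their titles say, there are 2 plates against 4: with these arrays averaged, a test chosen after the values were seen, the exact permutation p was 0.0667, the smallest possible, for HSP22.0, HSP21, HSP15.7 and HSP23.6 alike, and 0.333 for HSP23.5. In limma with the same averaging, HSP22.0, HSP21 and HSP15.7 passed at -2.05, -1.57 and -1.67 (adjusted p = 0.407, 0.435 and 0.374). These were 3 of the 5 genes, where 1.89% of all probe sets passed.

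HSP21, which protects photosystem and nucleoid proteins of plastids under heat, gave 28695, 19845, 28744 and 30137 on the 4 GWt plates in the same order. The GHsf arrays gave 10418, 16490 and 6109. These groups did not overlap either, and the lowest value of the gene was again B5-2. The means were 26855 ± 4721 (SD, n = 4) and 11006 ± 5216 (SD, n = 3). The log2 fold change was -1.38 (SE 0.43, 95% interval -2.32 to -0.45, limma adjusted p = 0.291), with an exact permutation p of 0.0286.

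HSP15.7, which carries a peroxisomal targeting signal, gave 3709, 2801, 3483 and 4866 on the GWt plates. On the GHsf arrays it gave 1304, 2225 and 766. Again the groups did not overlap and B5-2 was lowest, although GHsf B3-2 reached 2225 while GWt A2 stood at 2801. The means were 3715 ± 859 (SD, n = 4) and 1431 ± 738 (SD, n = 3), and the log2 fold change was -1.48 (SE 0.42, 95% interval -2.41 to -0.56, limma adjusted p = 0.264, exact permutation p = 0.0286).

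HSP23.6, a small chaperone of the mitochondrial matrix, gave 23612, 24357, 30644 and 27055 on the GWt plates. It gave 10752, 23177 and 13134 on the GHsf arrays. The groups did not overlap, but array B3-2 came close to GWt plate A1, and the other 2 arrays were far lower. The means were 26417 ± 3183 (SD, n = 4) and 15688 ± 6594 (SD, n = 3). The log2 fold change was -0.82 (SE 0.33, 95% interval -1.54 to -0.11, limma adjusted p = 0.393, exact permutation p = 0.0286), short of the threshold of 1.

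HSP23.5, the other mitochondrial member, gave 9733, 8678, 11368 and 9208 on the GWt plates and 8899, 9296 and 8215 on the GHsf arrays. These groups overlapped. The means were 9747 ± 1163 (SD, n = 4) and 8803 ± 547 (SD, n = 3). Its log2 fold change was -0.14 (SE 0.24, 95% interval -0.67 to 0.39, limma adjusted p = 0.879, exact permutation p = 0.286). The interval holds neither a 2-fold fall nor a 2-fold rise. GHsf lay below GWt without overlap for 4 of the 5 genes, where 5.26% of all probe sets did so.

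**Figure D1:**
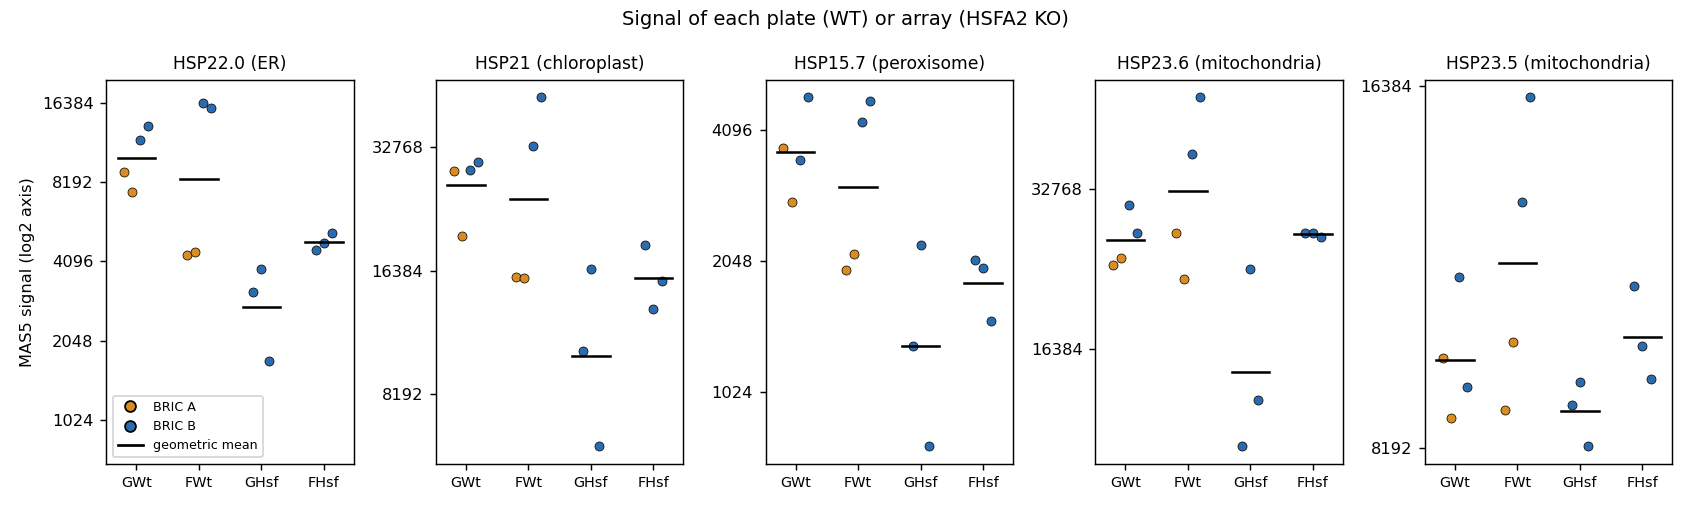
MAS5 signal, on a log2 axis with its own range in each panel, of the 5 genes on 14 plates or arrays: GWt and FWt, 4 plates each, GHsf and FHsf, 3 arrays each. Points are plates or arrays, coloured by canister, and bars are geometric means. The GHsf arrays sit below all GWt plates for every gene but HSP23.5, and the FWt plates split by canister.

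Removal of single plates changed these calls. Without GHsf array B5-2 the log2 fold changes were -1.55 for HSP22.0, -1.02 for HSP21 and -1.10 for HSP15.7, and 0 of the 5 genes passed, where 2.43% of all probe sets did. Without GWt plate B2 0 passed either, at -1.75, -1.32 and -1.34, where 2.29% of all probe sets did. HSP22.0 alone passed without GWt plate A1 or without GHsf array B3, and HSP21 was also lost without GWt plate B1 or FHsf array B5. Without GHsf array B3-2, HSP23.6 passed, at -1.14. Over the 14 removals, 2.09% to 2.6% of all probe sets passed. The direction stayed the same in all 14 removals for each of the 5 genes. Removals of FWt plates or FHsf arrays cannot move this fold change, however, and act only on the spread. Where GHsf and GWt did not overlap, no single removal could reverse the direction. For HSP23.5, whose groups overlapped, the values ran from -0.19 to -0.06.

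The 2 arrays of plate A1 in each WT group give an idea of the difference between repeats. Their titles do not say whether the repeat was of the array or of an earlier step. On FWt plate A1, the second array read 1.89-fold higher than the first for HSP22.0, 1.52-fold for HSP21 and 1.53-fold for HSP15.7. For HSP23.6 and HSP23.5 that pair differed by 1.04-fold and 1.14-fold. The pair of arrays of GWt plate A1 differed by 1.06-fold, 1.24-fold and 1.08-fold for HSP22.0, HSP21 and HSP15.7. Over the probe sets above the median signal, the median difference was 1.32-fold in FWt, 1.34-fold in GWt and 1.34-fold between GHsf arrays B3 and B3-2. The FWt pair was thus wider apart than that median for HSP22.0, HSP21 and HSP15.7 and closer for HSP23.6 and HSP23.5. The GHsf arrays B3 and B3-2 differed by 2.16-fold for HSP23.6, 1.71-fold for HSP15.7, 1.58-fold for HSP21, 1.22-fold for HSP22.0 and 1.04-fold for HSP23.5.

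The comparison on the ground was also read apart for arrays titled Rep2, called the second run, and for all others, called the first run. In the first run, GHsf B3 minus the mean of the 4 GWt plates was -1.70 for HSP22.0, -1.31 for HSP21 and -1.50 for HSP15.7 on the log2 scale. In the second run, the mean of GHsf B3-2 and B5-2 minus GWt A1-2 was -1.76, -1.67 and -1.45. For HSP23.6 the difference was -1.33 in the first run and -0.27 in the second. The first-run values are those of a fit without the second-run arrays, in which 0 of the 5 genes passed in limma, where 2.32% of all probe sets did (adjusted p = 0.703 for HSP22.0, 0.686 for HSP21 and 0.616 for HSP15.7), with the spread of the single GHsf array assumed to be that of the other groups. The second-run values were not tested.

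The canister was confounded with genotype, so the comparison was repeated with the WT plates of BRIC B alone. The log2 fold changes of GHsf : GWt were then -2.19 for HSP22.0, -1.53 for HSP21, -1.66 for HSP15.7, -0.96 for HSP23.6 and -0.22 for HSP23.5. HSP22.0 and HSP15.7 passed, 2 of the 5, where 2.15% of all probe sets did. Against the WT plates of BRIC A alone, a choice made after the values were seen, HSP22.0 passed at -1.58, and HSP21 at -1.23 and HSP15.7 at -1.30 did not, 1 of the 5, where 2.19% of all probe sets did.

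**Figure D2:**
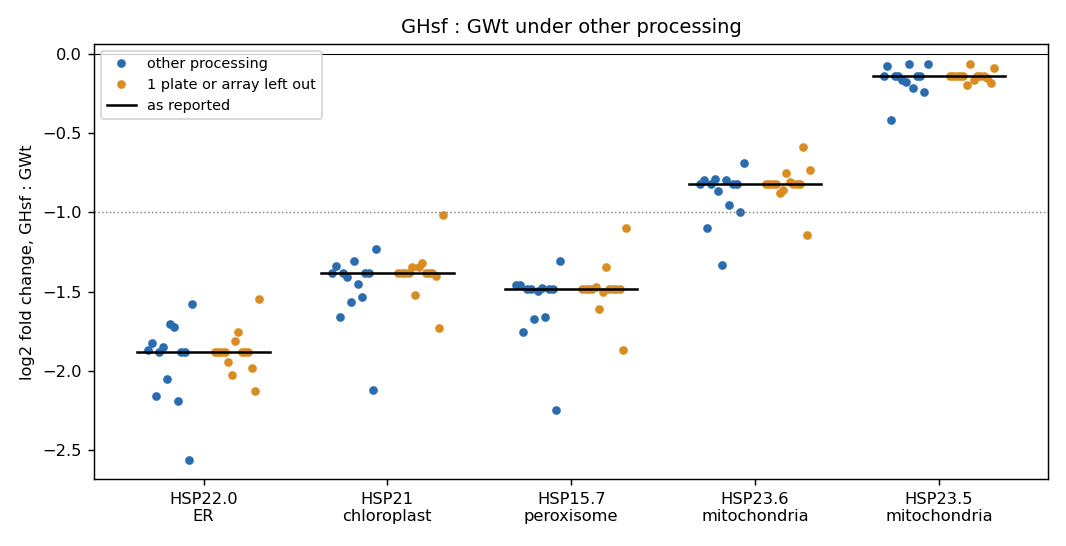
Log2 fold change of GHsf : GWt (vertical axis) for the 5 genes as reported (black bars), under other processing (blue points) and with 1 plate or array left out (orange points), and the dotted line marks -1. Every value is below 0, HSP22.0 stays below -1.5 and HSP23.5 stays above -0.5.

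In spaceflight, all 5 genes had a lower mean signal in the HSFA2 KO line than in the WT line, but none passed the thresholds. FHsf : FWt gave log2 fold changes of -0.79 (SE 0.51) for HSP22.0, -0.64 (SE 0.43) for HSP21, -0.74 (SE 0.42) for HSP15.7, -0.27 (SE 0.33) for HSP23.6 and -0.21 (SE 0.24) for HSP23.5. In limma 0 of the 5 genes passed, where 1.75% of all probe sets did, and 0 had an unadjusted p under 0.05, where 7.93% did. The adjusted p in limma ran from 0.709 to 0.887 and the exact permutation p from 0.200 to 0.429. The 95% interval of HSP22.0 ran from -1.91 to 0.34, so a fall as large as that on the ground lies within it.

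The WT plates spread widely in spaceflight. HSP22.0 gave 4327 and 4432 on FWt plates A1 and A2 but 16379 and 15674 on plates B1 and B2. The FHsf arrays B3-2, B4 and B5 gave 4525, 4821 and 5236, which falls between the WT plates of the 2 canisters. HSP21 gave 15813 and 15716 on the FWt plates of BRIC A, 32921 and 43323 on those of BRIC B, and 18902, 13202 and 15434 on the FHsf arrays. The FHsf arrays thus overlapped the FWt plates of BRIC A and lay below those of BRIC B.

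HSP15.7 showed the same arrangement, with 1947 and 2118 on the FWt plates of BRIC A, 4269.9 and 4761 on those of BRIC B, and 2051, 1969 and 1485 on the FHsf arrays. HSP23.6 gave 27103 and 22232 in BRIC A and 38154 and 48803 in BRIC B. Its 3 FHsf arrays gave 27091, 27132 and 26680.0, the tightest group of the gene. HSP23.5 gave 8806 and 10026 in BRIC A, 13129 and 16046 in BRIC B, and 11168, 9953 and 9343 on the FHsf arrays.

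All HSFA2 KO plates were in BRIC B. Against the 2 FWt plates of BRIC B, the log2 fold change of FHsf : FWt was -1.72 for HSP22.0, -1.27 for HSP21, -1.31 for HSP15.7, -0.68 for HSP23.6 and -0.52 for HSP23.5. HSP22.0 passed there, 1 of the 5 genes, where 2.01% of all probe sets did. Against the 2 FWt plates of BRIC A, a choice made after the values were seen, the values were 0.15, -0.01, -0.16, 0.14 and 0.11 in the same order. None of the 5 passed there, where 312 of all 22687 probe sets did. The size of the genotype difference in spaceflight therefore moved with the canister of the WT plates.

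**Figure D3:**
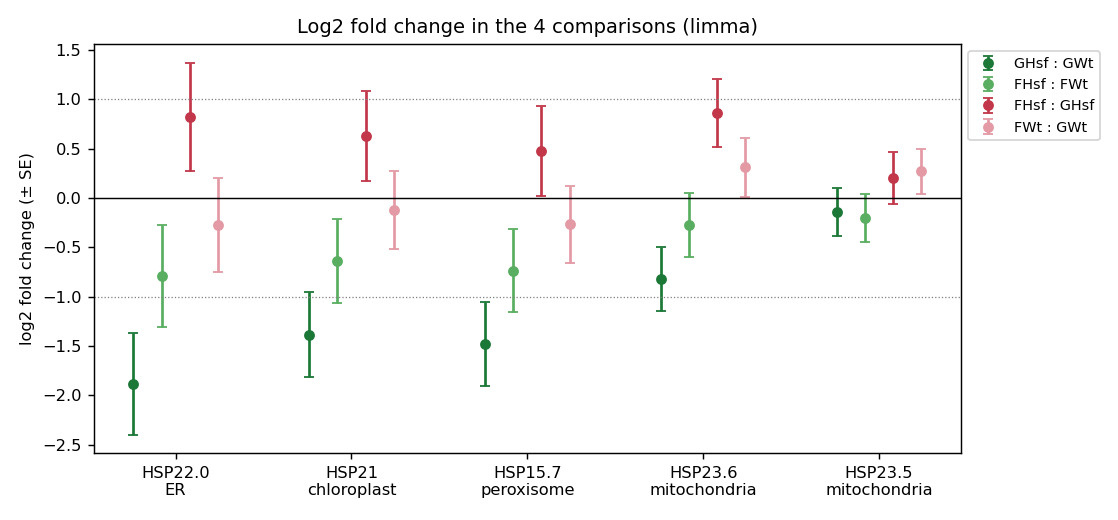
Log2 fold change with its standard error (bars) of the 5 genes in the 4 comparisons, from limma with all 4 groups in 1 fit, and dotted lines mark 1 and -1. Only HSP22.0, HSP21 and HSP15.7 in GHsf : GWt passed both thresholds.

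In HSFA2 KO cells, all 5 genes had higher mean signals in spaceflight than on the ground, and none passed. FHsf : GHsf gave log2 fold changes of 0.86 (SE 0.35, 95% interval 0.10 to 1.62, limma adjusted p = 0.678) for HSP23.6 and 0.82 (SE 0.55, 95% interval -0.38 to 2.02, limma adjusted p = 0.824) for HSP22.0. The values were 0.63 (SE 0.46) for HSP21, 0.48 (SE 0.45) for HSP15.7 and 0.20 (SE 0.26) for HSP23.5. In limma 0 of the 5 passed, where 1.51% of all probe sets did, and 1 of the 5, HSP23.6, had an unadjusted p under 0.05, where 6.89% did. This comparison shares the GHsf arrays with GHsf : GWt, so the low GHsf values enter both.

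The FHsf arrays of HSP22.0, at 4525 to 5236, lay above the GHsf arrays, at 1720 to 3838. HSP23.6 did not overlap either, with 26680.0 to 27132 against 10752 to 23177, nor did HSP23.5, with 9343 to 11168 against 8215 to 9296. Thus 3 of the 5 genes were higher in FHsf without overlap, where 5.26% of all probe sets were. For these the exact permutation p was 0.100, the smallest that 3 arrays against 3 allow, so this test could not reach 0.05. HSP21 overlapped through GHsf B3-2, as did HSP15.7, and their exact permutation p was 0.300 and 0.400. Without GHsf B3-2, HSP23.6 passed at a log2 fold change of 1.18. Without GHsf B5-2, the values of HSP22.0, HSP21 and HSP15.7 dropped to 0.48, 0.26 and 0.09.

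In WT cells, no gene of the 5 differed between spaceflight and the ground beyond the spread of the plates. FWt : GWt gave -0.28 (SE 0.48) for HSP22.0, -0.12 (SE 0.40) for HSP21, -0.27 (SE 0.39) for HSP15.7, 0.31 (SE 0.30) for HSP23.6 and 0.27 (SE 0.23) for HSP23.5. In limma 0 of the 5 passed, where 0.807% of all probe sets did, and 0 had an unadjusted p under 0.05, where 4.39% did. The exact permutation p ran from 0.257 to 0.771. For HSP22.0 the 95% interval ran from -1.32 to 0.77 on the log2 scale.

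The WT plates in spaceflight nevertheless differed by canister. The FWt plates of BRIC A lay below all 4 GWt plates for HSP22.0, HSP21 and HSP15.7, and those of BRIC B lay above all of them for every gene but HSP15.7. How often 2 plates lie outside 4 others over all probe sets was not counted, so these arrangements are descriptions only. The flight and ground canisters of letter A were different canisters, as were those of letter B. For letter A, FWt minus GWt was -0.90 for HSP22.0, -0.60 for HSP21, -0.67 for HSP15.7, 0.03 for HSP23.6 and 0.03 for HSP23.5 on the log2 scale. For letter B it was 0.35, 0.36, 0.13, 0.58 and 0.50. The direction for HSP22.0, HSP21 and HSP15.7 thus differed between the letters. With 2 plates against 2, an exact permutation test cannot go below p = 0.333.

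A fit with the WT plates split by canister, chosen after the values were seen, gave the difference between the canisters. In spaceflight, BRIC B exceeded BRIC A by 1.87 (SE 0.38, limma adjusted p = 0.652) on the log2 scale for HSP22.0, 1.26 (SE 0.45) for HSP21, 1.15 (SE 0.47) for HSP15.7, 0.81 (SE 0.37) for HSP23.6 and 0.63 (SE 0.28) for HSP23.5. HSP22.0 passed, 1 of the 5, where 1.01% of all probe sets did. On the ground the differences were 0.61, 0.30, 0.35, 0.26 and 0.15 in the same order, and 0 of the 5 passed, where 1.15% of all probe sets did. The difference between the 2 canister contrasts was 1.26 (SE 0.53) for HSP22.0 and 0.47 to 0.96 for the others, and 0 of the 5 passed, where 0.877% of all probe sets did (limma adjusted p = 0.9997 for each). Of the 5 genes in the first of these contrasts, 4 had a limma p under 0.05 without adjustment, where 5.12% of all probe sets did, in the second 0, where 4.51% did, and in the third 1, where 4.03% did.

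**Figure D4:**
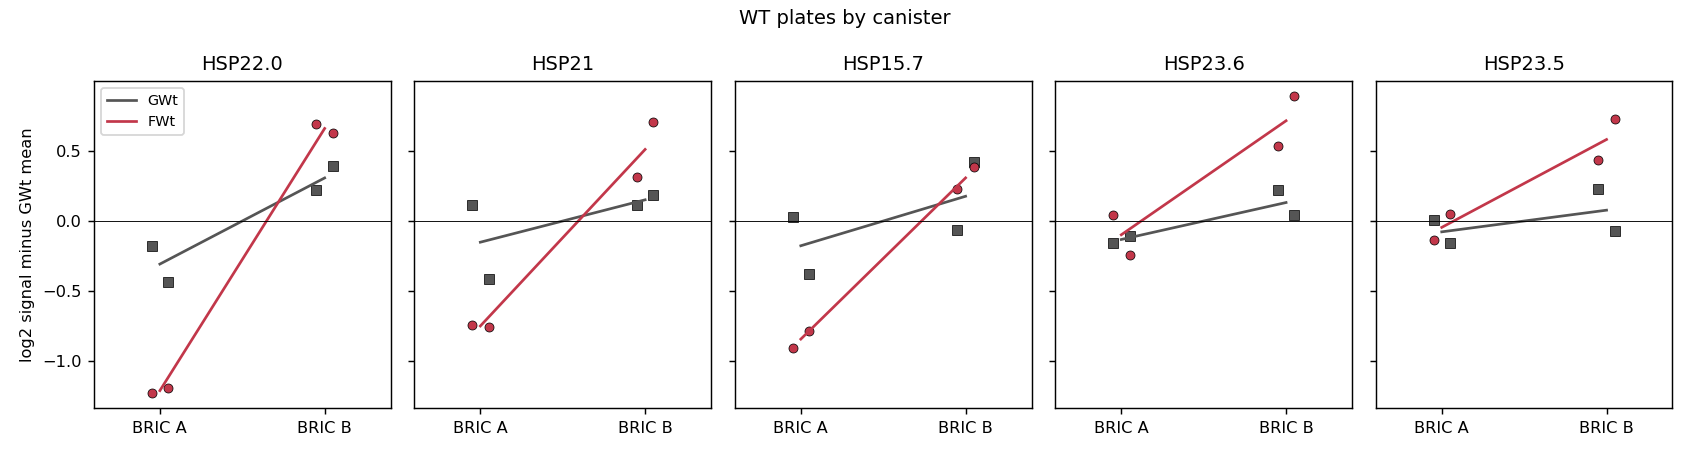
Log2 signal of the 8 WT plates by canister, relative to the GWt mean of each gene (vertical axis), with grey squares for GWt, red circles for FWt and lines through the means of 2 plates. The FWt line rises from BRIC A to BRIC B by 1.87 for HSP22.0 and by 0.63 for HSP23.5, and the GWt line by 0.61 and 0.15.

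The interaction of genotype and environment, which asks whether spaceflight moved the genes differently in the 2 genotypes, was 1.096 (SE 0.73) for HSP22.0, 0.74 (SE 0.61) for HSP21, 0.74 (SE 0.60) for HSP15.7, 0.55 (SE 0.46) for HSP23.6 and -0.06 (SE 0.35) for HSP23.5. In limma 0 of the 5 passed, where 1.02% of all probe sets did, and 0 had an unadjusted p under 0.05, where 4.74% did. The 95% interval of HSP22.0 ran from -0.49 to 2.69. A difference between the genotypes in their response to spaceflight was therefore not detectable with these plates.

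By geometric mean, the groups ran in the order GWt, FWt, FHsf and GHsf for HSP22.0, HSP21 and HSP15.7. For HSP23.6 and HSP23.5 the order was FWt, FHsf, GWt and GHsf. Of the neighbours in these orders, GWt and FWt overlapped for HSP22.0, HSP21 and HSP15.7, and FWt and FHsf overlapped for all 5 genes. FHsf and GHsf overlapped for HSP21 and HSP15.7 and not for HSP22.0, and GWt and GHsf overlapped for HSP23.5 and not for HSP23.6, although none of these pairs of neighbours passed the thresholds. FHsf was not tested against GWt. GHsf was the lowest group for each gene, and GHsf B5-2 was the lowest single value for all but HSP23.6, whose lowest was GHsf B3. The plates within a group varied most in FWt for HSP22.0, with a coefficient of variation of 66.0%, and least in FHsf for HSP23.6, at 0.928%.

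Across the 14 plates and arrays, HSP22.0, HSP21 and HSP15.7 were closest to each other. Among 11214 other probe sets with 1 locus and a mean signal over the median, HSP21 and HSP15.7 were the first and second most like HSP22.0, with Pearson r of 0.96 and 0.95. HSP15.7 was likewise first for HSP21, with r of 0.97, and HSP21 first for HSP15.7. These are descriptions over 14 values, which share plates, array runs and canisters, and no test was made. After the group means were taken away, r between these 3 genes was 0.88 to 0.94, so the likeness was not only a difference between groups.

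Next in the order came ERD10 (At1g20450), a dehydrin, for HSP22.0 with r of 0.92, HSP70T-2 (At2g32120), of the HSP70 family, for HSP21 with r of 0.94, and At2g19310 (HSP18.5), another small heat shock protein, for HSP15.7 with r of 0.95. HSP23.6 had other neighbours: At1g77930, annotated as a DnaJ domain protein, with r of 0.98, ROF2 (At5g48570), a peptidyl-prolyl isomerase that in Arabidopsis modulates HsfA2 activity, with r of 0.94, and At1g67360, of the rubber elongation factor family, with r of 0.92. HSP23.5 had lower values, 0.83 each for At1g26800, a RING finger protein, for At4g15420, a UFD1-like protein, and for MTK (At1g49820), a methylthioribose kinase. The other mitochondrial gene, HSP23.6, stood only in place 23 for HSP23.5, with r of 0.76.

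The other small heat shock proteins, most of them cytosolic, were counted in the same way. Of 15 listed, 14 were measured, and 0 rose and 0 fell in GHsf : GWt, where 2.46% of all probe sets passed, with a median log2 fold change of -0.12 and a range from -0.95 to 0.22. Their mean signals on GWt plates ran from 77.4 for HSP15.4 to 129400 for HSP17.4, against 3715 to 26855 for the 5 organelle genes. Whether signals so low or so high hid changes was not tested. The difference between this count of genes passing and that of the 5 organelle genes was not tested either. The lowest, HSP18.5 (At2g19310), was also the one most like HSP15.7 apart from the organelle genes. None of the 14 passed in any of the other 3 comparisons or in the interaction. HSP26.5 (At1g52560), which is also described as a mitochondrial member of the family and was singled out after its values were seen, gave -0.22 (SE 0.43) in GHsf : GWt and 0.87 (SE 0.46) in FHsf : GHsf.

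Chaperones that share the organelles with these proteins were counted by compartment in GHsf : GWt, where 2.46% of all probe sets passed. In the endoplasmic reticulum 7 of 8 listed chaperones were measured, BiP, calnexin and calreticulins among them, and 0 passed, with a median of 0.45 and a range from -0.27 to 0.93. In the chloroplast 0 of 7 passed, with a median of 0.10 and a range from -0.87 for ClpB3 upward to 0.51. Of 9 mitochondrial chaperones 1 rose and 1 fell. MGE2 (At4g26780), the heat-inducible GrpE nucleotide exchange factor of mitochondrial HSP70, fell by 2.37 (SE 0.71, limma adjusted p = 0.279), from 233 to 445 on GWt plates to 10.8 to 148 on GHsf arrays. The value of 10.8 lay under the lower quartile of every array, so the size of this fall is uncertain. MGE1 (At5g55200), its constitutive paralog, rose by 1.30 (SE 0.29, limma adjusted p = 0.1704), from 480 to 806 on GWt plates to 1246 to 2061 on GHsf arrays. For neither gene did the groups overlap, where 5.26% of all probe sets were lower in GHsf without overlap and 7.95% were higher. Of 6 genes of peroxisomal import and proteolysis 0 passed, with a median of -0.29 and a range from -0.72 to 0.21. None of these chaperone and peroxisome genes passed in the other 3 comparisons or in the interaction.

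**Figure D5:**
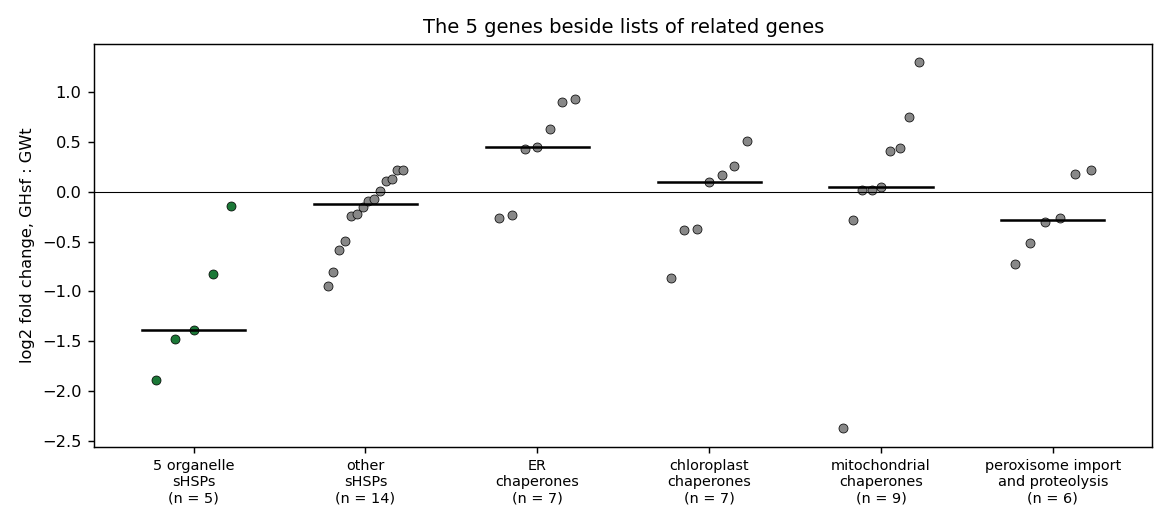
Log2 fold change of GHsf : GWt (vertical axis) of the 5 genes (green) beside lists of related genes (grey), where bars are medians and n is the number of genes measured. The medians are -1.38 for the 5 genes, -0.12 for the other small heat shock proteins and 0.45, 0.10, 0.05 and -0.29 for the genes of the compartments, and the low mitochondrial point at -2.37 is MGE2.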

How the data were processed

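MAS5 intensity signals, 1 per probe set and array, were made by the authors with Affymetrix Expression Console, as the submitters' processing notes name it, and deposited on a linear scale. Versions and the genome build of the annotation are not given in the sources used here. The deposited table of the authors' comparisons, with log2 fold changes and p-values, was used only for its annotation. The growth text of the labels also describes another knockout line, so it was read with the series' design text and the paper's methods. Log2 of the signal was taken with no offset, and 22687 of 22810 probe sets were tested (123 left out). The functions lmFit and eBayes of limma 3.58.1 in R 4.3.3 were run on 14 values in 4 groups (10 residual and 1.65 prior degrees of freedom). A gene passed with p under 0.01 before adjustment and a log2 fold change above 1 or below -1, and p was also adjusted by Benjamini-Hochberg over all probe sets. Each of the 5 genes was compared in 4 comparisons by exact two-sided permutation tests, 20 in all, unadjusted, and the 2 comparisons with GHsf again with arrays B3 and B3-2 averaged. The number of arrays limits the precision: above the median signal, probe sets had a median residual SD of 0.43 (log2). The fit was tested on simulated data. Alternatives covered offset, scaling, filter, repeat arrays, array run, canister, block, samples fitted, spread and single plates. The genes named were the 5 genes, *HsfA2*, the 3 probe sets most like each, and list members that passed. The members and lists were chosen with earlier results of these data known. Figures were drawn with matplotlib 3.10.9.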

Additional observations from a re-analysis of the deposited data

Results flagged for a closer look

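HSP21 on GWt plate A2 stood far from the other 3 plates of its group, at 19845 against 28695 to 30137. The gap was 0.883 of the group's range on the log2 scale, above the critical value of Dixon's ratio for 4 values. Chance marks about 1 in 20 groups, and 10 groups were tested.

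The difference between FWt and GWt plates had opposite directions for BRIC A and BRIC B for HSP22.0 and HSP21. Each FWt plate of BRIC A lay below, and each of BRIC B above, the GWt plates under the same letter, which were in a different canister. How often other probe sets are arranged so was not counted. The change in BRIC B minus that in BRIC A was 1.26 for HSP22.0 and 0.96 for HSP21 on the log2 scale. Neither difference passed the thresholds in limma (adjusted p = 0.9997 for each).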

How the results depend on the processing

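For the 5 genes, 15 of 685 alternative values changed sign, all of them of genes that had not passed, and in 23 a gene moved across the thresholds. In GHsf : GWt no direction changed, which removal of a single plate could not do for genes whose groups did not overlap. With no second-run arrays none of the 5 passed, a count of 0, at -1.70 for HSP22.0, -1.31 for HSP21 and -1.50 for HSP15.7, with 1 GHsf array left whose spread is assumed to be that of the other groups. With only the 2 groups compared in the fit 1 of the 5 passed, HSP22.0, where 2.31% of all probe sets did. HSP21 at -1.38 and HSP15.7 at -1.48 did not. HSP21 was lost at -1.53 with WT plates of BRIC B only, where 2.15% of all probe sets passed. With WT plates of BRIC A only 1 passed, where 2.19% of all probe sets did, and HSP21 at -1.23 and HSP15.7 at -1.30 were lost. Leaving out single plates gave -2.12 to -1.55 for HSP22.0, -1.73 to -1.02 for HSP21 and -1.87 to -1.10 for HSP15.7. Then 0 to 4 of the 5 passed the thresholds, where 2.09% to 2.6% of all probe sets did. The adjusted p of these 3 in GHsf : GWt ran from 0.0024 to 0.703 over all alternatives, and was under 0.05 only with an intensity trend (0.0024 to 0.0084).

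In FWt : GWt, HSP22.0, HSP21 and HSP15.7 turned to 0.35, 0.36 and 0.13 with WT plates of BRIC B only, and leaving out single plates gave -0.60 to 0.0425 for HSP22.0 and -0.40 to 0.0923 for HSP21. In FHsf : FWt, 1 gene passed with WT plates of BRIC B only, and with those of BRIC A only HSP22.0, HSP23.6 and HSP23.5 turned to 0.15, 0.14 and 0.11. In FHsf : GHsf, leaving out single arrays gave 0 to 1. The interaction of HSP23.5 turned to 0.0571 with arrays centred on their median, 0.0182 with 16 single arrays, 0.0336 without both GHsf arrays B3 and B3-2, 0.17 with WT plates of BRIC A only, and -0.20 to 0.0885 with single plates left out.

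Counts over all probe sets moved in the interaction from 231 to 71 over the median signal, 147 with an intensity trend, 361 with no second-run arrays and 386 without GHsf B3 and B3-2. In FWt : GWt they moved from 183 to 53 over the median signal, 91 with an intensity trend and 302 with WT plates of BRIC B only, and over the median signal also from 342 to 138 in FHsf : GHsf and from 397 to 228 in FHsf : FWt. Centring on array medians moved the median of all probe sets in GHsf : GWt from 0.12 to -0.15 and the calls from 346 higher and 212 lower to 151 and 363, and quantile normalization gave 250 and 320. In FHsf : GHsf the calls were 124 higher and 218 lower, 180 and 151 centred and 189 and 184 with quantiles. In FHsf : FWt they were 267 and 130, 152 and 177, and 201 and 165. In the interaction centring gave 120 and 118 in place of 91 and 140. The 3 genes that passed in GHsf : GWt did so under both scalings. Plate position as a replicate block gave 0.91 for HSP22.0 in FHsf : GHsf and -0.28 in FWt : GWt and changed no call of the 5 genes. Same-numbered plates correlated by 0.002 to 0.094, so the positions did not pair the plates. The cause of these changes was not tested.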
